A study of Mus musculus with 2 samples.

Results

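Collagen genes were taken from the deposited expression table as all rows whose symbol has the form of a collagen chain, such as Col1a1, and 37 of the 14678 genes met this rule. They were divided by structure into 10 fibrillar, 6 basement membrane, 5 beaded filament and 7 FACIT genes and 9 genes of other classes. Uteri were compared at G2.5, the pre-implantation stage of pregnancy, between VEGF-normal (Dox+) and VEGF-repressed (Dox-) mice. All animals were double transgenic for VEGFtetO/tetO, in which tet operator copies sit in the VEGF promoter, and for beta-AKtg/wt, a β-actin promoter transgene that expresses the tetR-Krab repressor in all tissues. Food of the Dox+ mice held doxycycline at 200 mg/kg, which lifts the repressor from the VEGF promoter, and Dox- littermates were taken off doxycycline at the age of 3 to 4 weeks. Doxycycline in the food thus differed between the groups together with VEGF, and effects of the drug and of VEGF repression cannot be told apart. The females were 9 to 10 weeks old and had been mated with VEGFtetO/tetO males. RNA of 3 uteri was pooled for each condition and 1 library was sequenced from each pool, so a difference has no replicate check and no test between conditions could be made.

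Expression was measured by digital gene expression (DGE) tag profiling, in which short sequence tags are assigned to genes, and the copy number of a gene is its number of tags. The libraries held 5985925 clean tags in Dox+ and 5844314 in Dox-, and levels are given as TPM, the copies per 1000000 clean tags. All ratios are of TPM, Dox- over Dox+, with the exact 95% interval of the counts in brackets. The intervals cover counting error only. A gene was called higher or lower where its combined copy number was at least 200 and its ratio reached 1.5-fold. Among all 6547 genes with enough copies, 15.2% were called higher and 14.7% lower, with a median log2 ratio of 0.03. Vegfa had 247 copies in Dox+ and 125 in Dox-, a ratio of 0.518 (0.415 to 0.645). All 9 markers of stroma, 8 of smooth muscle and 7 of epithelium that were followed had tags in both libraries. In RNA of a whole organ, fewer cells of a type and less RNA per cell cannot be told apart.

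Collagens are built of 3 chains wound into a triple helix. Fibrillar collagens pack into the banded fibrils that give stroma and myometrium their tensile strength, and FACIT collagens sit on the surface of those fibrils. Type IV collagen forms the sheet-like network of basement membranes under epithelium and around vessels and smooth muscle cells. Type VI collagen forms beaded filaments that lie between the basement membrane and the fibrils. In the mouse uterus the collagen matrix is rebuilt around the time of implantation.

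The type IV genes lie in head-to-head pairs, each pair read in opposite directions from a shared region, and their start regions are shown because both members of each pair had ratios on the same side of 1. Sequences are the plus strand of NCBIM37, the assembly also called mm9, and start sites are from the GENCODE annotation of that assembly. Capitals mark the GC box GGGCGG on either strand. On chromosome 8 the annotated first exons of Col4a1 and Col4a2 share 22 bases, at chr8:11312805-11312826. On chromosome 1 the start sites of Col4a4 and Col4a3 are separated by 71 bases, at chr1:82583425-82583495. Those of Col4a6 and Col4a5 on chromosome X are 1308 bases apart, and the 150 bases next to each start site are printed, chrX:137908620-137908769 and chrX:137909778-137909927.
Col4a1 and Col4a2, shared bases: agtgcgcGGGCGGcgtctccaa
Col4a4 and Col4a3, bases between: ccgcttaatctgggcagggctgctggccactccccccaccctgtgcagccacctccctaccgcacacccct
Col4a6 side: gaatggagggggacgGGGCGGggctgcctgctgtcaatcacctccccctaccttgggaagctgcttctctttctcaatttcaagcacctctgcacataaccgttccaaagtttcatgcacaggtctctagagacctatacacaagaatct
Col4a5 side: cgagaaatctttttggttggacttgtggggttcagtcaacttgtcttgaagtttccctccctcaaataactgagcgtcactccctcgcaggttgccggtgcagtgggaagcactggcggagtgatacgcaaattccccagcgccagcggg
The Col4a6 side holds 1 GC box, as do the bases shared by Col4a1 and Col4a2, and no CCAAT box or TATA box (TATAAA) was found in any of the 4 stretches on either strand. Among the RefSeq promoters of the mouse, 28.6% hold a GC box in the 150 bases before the start site and 20.7% in the last 71 bases. A CCAAT box is held by 24.5% and 13.3% in these windows and TATAAA by 7.57% and 4.41%, so most promoters lack them there too. No share was computed for a stretch of 22 bases, which is too short to be read as a promoter. The match is of letters alone.

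Collagen tags made up a larger part of the Dox- library, with 82588 tags in Dox+ and 109640 in Dox-, or 1.86% and 2.60% of the tags counted to genes. Their summed level per clean tag had a ratio of 1.36 (1.35 to 1.37). Enough copies were counted for 17 of the 37 genes, of which 5 (29.4%) were called higher, 3 (17.6%) lower and 9 neither, beside 15.2% and 14.7% of all genes. The higher genes were Col1a2, Col5a1, Col6a1, Col6a2 and Col6a4, and the lower ones Col4a2, Col4a5 and Col18a1. Past 2-fold were Col1a2 and Col6a4 among the higher genes and Col4a5 among the lower, against 4.61% and 5.62% of all genes. The median log2 ratio of the 17 genes lay near 0, at -0.04, and its sign depended on the settings. It was 0.0009 when tags counted to genes were the library sizes, 0.09 from 20 combined copies or without a filter, and 0.05 from 500 copies. The other 20 genes had combined copy numbers of 2 to 151 and held 0.725% of the collagen tags in Dox+ and 0.464% in Dox-. Col2a1, Col6a3, Col9a1, Col10a1, Col19a1, Col21a1 and Col25a1 had no row under these symbols and were not analysed here. Emid2, which encodes a type XXVI chain but does not carry a collagen symbol in the table, was left out by the rule and had 129 and 57 copies.

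**Figure D1:**
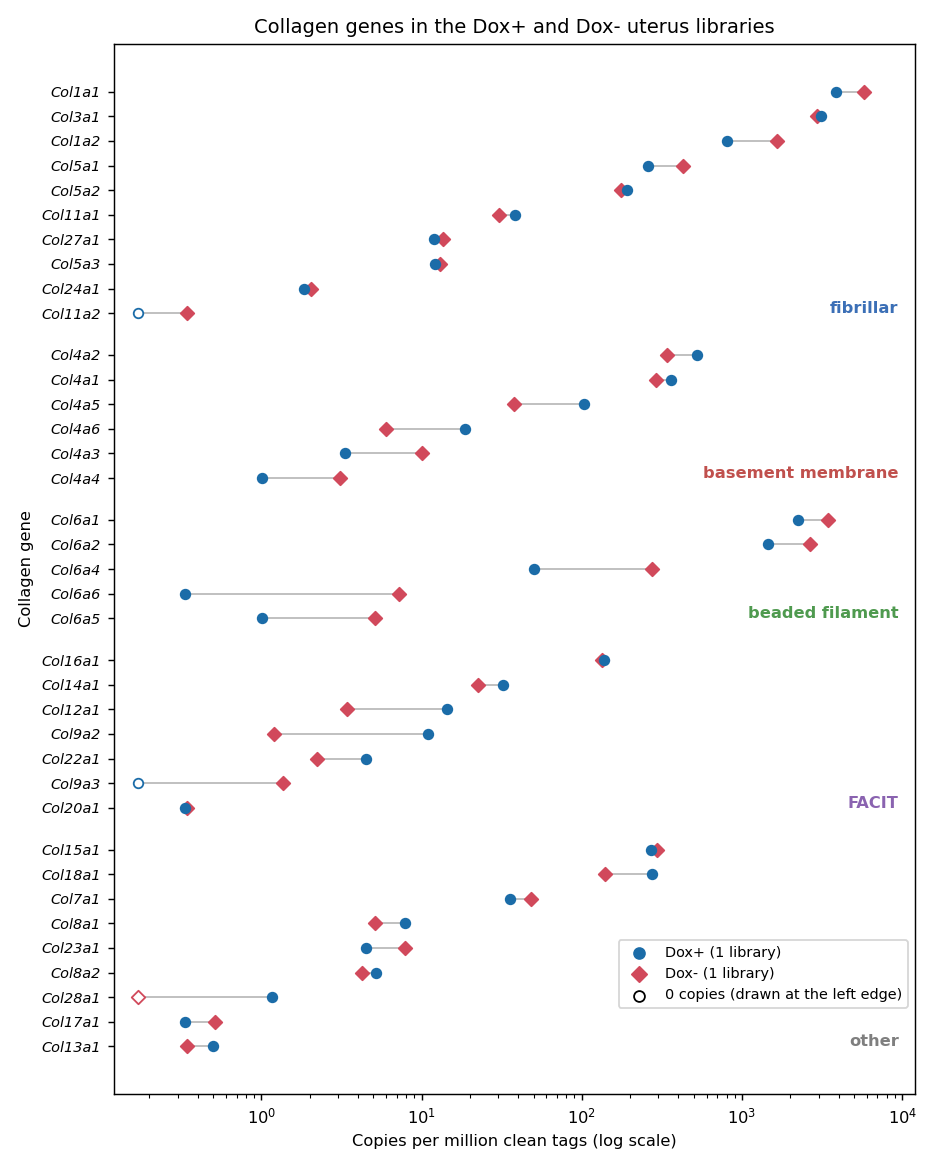
TPM of all 37 collagen genes on a log axis, with a circle for the Dox+ library and a diamond for the Dox- library, grouped by structural class. The span runs from below 1 TPM, as for Col20a1, to 3845 in Dox+ and 5766 in Dox- for Col1a1, and the beaded filament diamonds all lie to the right of their circles.

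Levels of different chains were compared as TPM per kb of transcript, since a longer transcript can give more tags when RNA is fragmented. Where tag profiling counts a tag per transcript, no length correction applies, so uncorrected TPM is also given where the reading depends on it. Per kb, Col1a1, the major chain of type I collagen, was the most abundant in both libraries, with 648 in Dox+ (640 to 657) and 972 in Dox- (962 to 983). In Dox+ it was followed by Col3a1 with 556 (548 to 564) and Col6a1 with 545 (536 to 554), whose counting intervals overlap on this scale. That closeness depends on the length correction, since without it Col3a1 had 3093 TPM and Col6a1 2234 in Dox+. In Dox- Col6a1 stood at 844 (833 to 856) and Col6a2 at 570 (561 to 579), both above Col3a1 at 526 (518 to 534). Col6a2 had stood well below Col3a1 in Dox+, at 310 (304 to 317). The order of Col6a2 and Col3a1 in Dox- depends on the length correction, since without it Col6a2 had 2650 TPM and Col3a1 2926. Col6a1 stood above Col3a1 in Dox- on both scales, with 3462 TPM.

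Among the fibrillar genes, 2 of the 6 with enough copies were called higher and none lower, beside 15.2% and 14.7% of all genes. The class had 49417 tags in Dox+ and 64301 in Dox-, a ratio of 1.33 (1.32 to 1.35). Col1a2 (chromosome 6, 4454814 to 4491543), the second chain of type I collagen, rose from 4793 to 9627 copies, a ratio of 2.06 (1.99 to 2.13). Col1a1 (chromosome 11, 94797538 to 94814356) had 23017 copies in Dox+ and 33696 in Dox-. Its ratio of 1.499 (1.47 to 1.52) lay just under 1.5, and it passed when the tags counted to genes were used as library sizes. Of the type I chains, Col1a2 thus had the larger ratio.

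Type III and type V collagen join type I in mixed fibrils, and their chains did not share one direction. Col3a1 (chromosome 1, 45368383 to 45406551), the single chain of type III collagen, had 18514 copies in Dox+ and 17098 in Dox-, a ratio of 0.946 (0.926 to 0.966). Col5a1 (chromosome 2, 27741945 to 27895034), a type V chain that helps to start fibrils, rose from 1553 to 2510 copies, a ratio of 1.66 (1.55 to 1.76). Its partner chain Col5a2, which lies beside Col3a1 on chromosome 1 (45431166 to 45560127), had 1154 and 1023 copies, a ratio of 0.908 (0.834 to 0.989). The intervals of Col3a1 and Col5a2 overlap each other, and both lie below those of Col5a1 and the type I chains.

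The remaining fibrillar genes were scarce. Col11a1, a minor fibril chain related to type V, had 230 and 178 copies, a ratio of 0.793 (0.648 to 0.968). Col27a1 had 72 and 79 copies, Col5a3 73 and 76, and Col24a1 11 and 12, differences within counting error. Col11a2 had no tag in Dox+ and 2 in Dox-, where a count of 0 allows up to 3 copies, or 0.501 TPM.

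Ratios between chains of one library do not depend on how the libraries are scaled. For each copy of Col1a1 there were 0.208 copies of Col1a2 in Dox+ (0.202 to 0.215) and 0.286 in Dox- (0.279 to 0.292). Col3a1 went the other way, from 0.804 copies for each copy of Col1a1 (0.789 to 0.820) to 0.507 (0.498 to 0.517). Of the type V chains, Col5a1 had 0.0675 copies to each copy of Col1a1 in Dox+ and 0.0745 in Dox-. Col5a2 had 0.0501 in Dox+ and 0.0304 in Dox-, or 0.606 times its Dox+ value (0.556 to 0.660). These are ratios of tags, and they say nothing of the chains in the protein.

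The 250 bases before the start of Col1a2, called higher here and the most abundant of the called fibrillar genes, are printed from the RefSeq promoter table (GRCm38.p6, chr6:4505368-4505617, plus strand), which held 30 of the 37 genes. Capitals mark the CCAAT box and the GC boxes (GGGCGG).
Col1a2 upstream: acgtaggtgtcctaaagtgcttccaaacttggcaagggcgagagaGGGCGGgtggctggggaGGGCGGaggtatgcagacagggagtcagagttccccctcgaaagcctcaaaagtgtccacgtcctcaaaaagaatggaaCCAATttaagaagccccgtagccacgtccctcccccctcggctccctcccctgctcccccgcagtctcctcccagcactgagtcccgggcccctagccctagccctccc
It holds 1 CCAAT box and 2 GC boxes, and no TATAAA was found on either strand. Bases after this start site were not searched, so the absence holds for the printed stretch alone. Of all promoters in the table, 33.8% hold a CCAAT box and 32.7% a GC box in the same 250 bases. Col1a1 had no entry in this table.

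**Figure D2:**
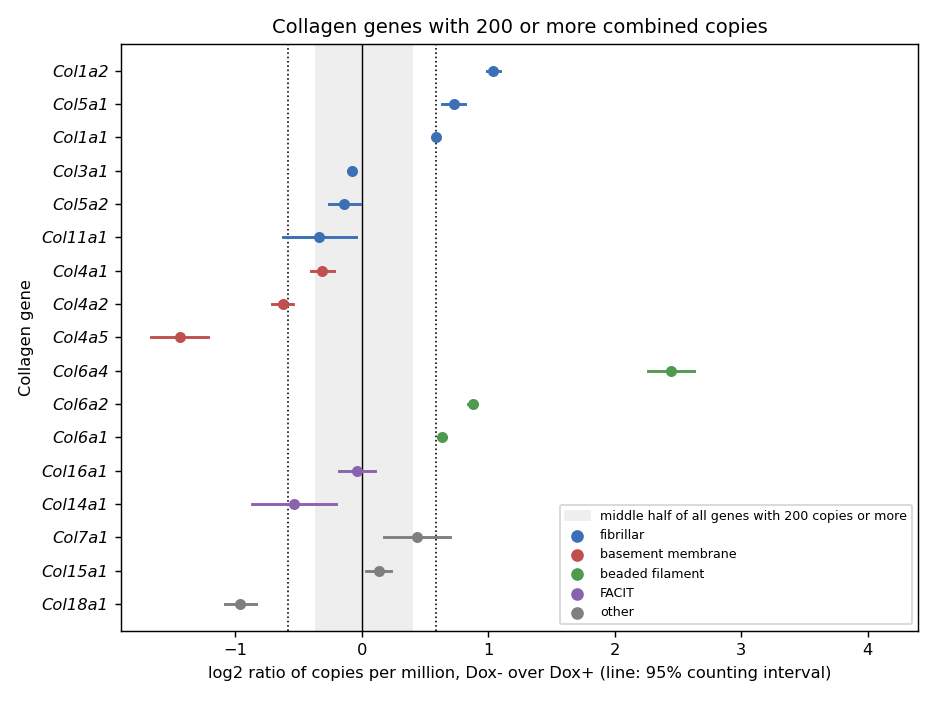
Log2 ratio of TPM, Dox- over Dox+, of the 17 collagen genes with 200 or more combined copies, coloured by class, with 95% counting intervals as lines, the 1.5-fold limits dotted and the range between the quartiles of all genes with enough copies shaded (-0.36 to 0.40). The 3 beaded filament genes lie to the right of the upper limit and Col4a2, Col4a5 and Col18a1 to the left of the lower one.

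Beaded filament collagen had the largest summed ratio of the 5 classes, with 22324 tags in Dox+ and 37400 in Dox-, or 1.72 (1.69 to 1.74). All 3 of its genes with enough copies were called higher, beside 15.2% of all genes. Col6a1 (chromosome 10, 76171537 to 76188913) rose from 13371 to 20233 copies, a ratio of 1.55 (1.52 to 1.58). Col6a2 (chromosome 10, 76058507 to 76086375), its partner in the type VI molecule and its neighbour on the chromosome, rose from 8643 to 15490 copies, a ratio of 1.84 (1.79 to 1.88). The Dox- library held 0.766 copies of Col6a2 for each copy of Col6a1 (0.750 to 0.782), against 0.646 in Dox+ (0.629 to 0.664). The type VI chain Col6a3 was not analysed here, so the sums and shares of this class do not include it.

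Col6a4, Col6a5 and Col6a6 encode chains that resemble the chain of Col6a3, and they lie in a row on the minus strand of chromosome 9. Col6a4 (105891785 to 105999114) rose from 302 to 1605 copies, a ratio of 5.44 (4.81 to 6.18), the largest of the 17 genes with enough copies. Col6a5 (105758400 to 105862974) had 6 copies in Dox+ and 30 in Dox-, a ratio of 5.12 (2.10 to 15.05). Col6a6 (105591747 to 105730415) had 2 and 42 copies, a ratio of 21.5 with a wide interval of 5.60 to 183. The 3 neighbours together had 310 and 1677 copies, and all 3 intervals lie above those of Col6a1 and Col6a2. For each 1 copy of Col6a1 there were 0.0226 copies of Col6a4 in Dox+ and 0.0793 in Dox-, a comparison chosen after its values were seen.

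The basement membrane class had a summed ratio below 1, with 6067 tags in Dox+ and 4034 in Dox-, or 0.681 (0.654 to 0.709). Of its 3 genes with enough copies 2 were called lower and none higher, beside 14.7% and 15.2% of all genes. Col4a2 (chromosome 8, 11312805 to 11449287) fell from 3148 to 1995 copies, a ratio of 0.649 (0.613 to 0.687). Col4a1 (chromosome 8, 11198423 to 11312826), which forms the common type IV molecule with Col4a2, had 2167 and 1705 copies, a ratio of 0.806 (0.756 to 0.859), below 1 but not past 1.5-fold. The tags of Col4a2 for each tag of Col4a1 were 1.45 in Dox+ (1.37 to 1.54) and 1.17 in Dox- (1.10 to 1.25).

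The chain of Col4a5 joins that of Col4a6 in a network found around smooth muscle and under some epithelia. Col4a5 (chromosome X, 137909928 to 138123778) fell from 615 to 222 copies, a ratio of 0.370 (0.316 to 0.432). Col4a6 (chromosome X, 137599946 to 137908619), with too few copies to be called, had 111 and 35 copies, a ratio of 0.323 (0.214 to 0.476). Their intervals overlap, and the ratio of Col4a6 to Col4a5 was 0.180 (0.146 to 0.221) in Dox+ and 0.158 (0.107 to 0.226) in Dox-. For each copy of Col4a1 there were 0.284 copies of Col4a5 in Dox+ and 0.130 in Dox-, which was compared after the values were seen.

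The third pair, Col4a3 and Col4a4, encodes chains best known from the filter of the kidney and was scarce in the uterus. Col4a3 (chromosome 1, 82583496 to 82718634) had 20 copies in Dox+ and 59 in Dox-, a ratio of 3.02 (1.79 to 5.30). Col4a4 (chromosome 1, 82447298 to 82583424) had 6 and 18, a ratio of 3.07 (1.17 to 9.46). Both had too few copies to be called, so that only Col4a2 and Col4a5 of the 6 type IV genes were called. Within each pair both ratios lay on the same side of 1. The 2 X-linked ratios overlap within counting error, as do those of Col4a3 and Col4a4, whereas the intervals of Col4a1 and Col4a2 do not.

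**Figure D3:**
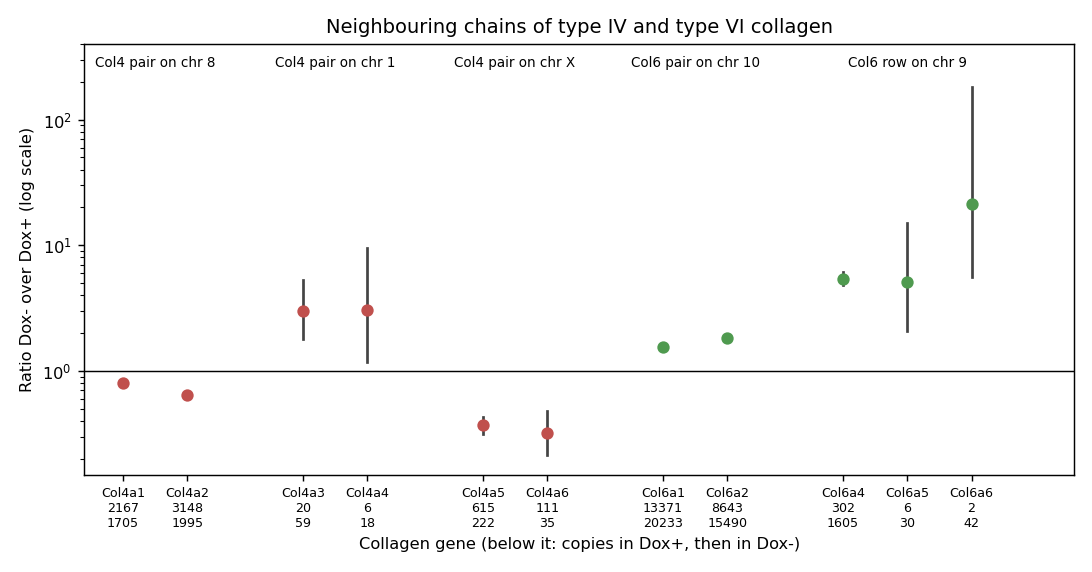
Ratio of Dox- over Dox+ on a log axis for the chains of type IV and type VI collagen, set out by their place on the chromosomes, with 95% counting intervals as lines and the copies in Dox+ and then Dox- under each name. Neighbours lie on the same side of 1 in all 5 sets, near 0.37 and 0.32 for Col4a5 and Col4a6 and near 3.02 and 3.07 for Col4a3 and Col4a4. The sets were drawn within a collagen type and leave out Col18a1, also on chromosome 10, with a ratio of 0.514 on the other side from Col6a1 and Col6a2. No share of such neighbours over all genes was computed.

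Partners of type IV collagen in the basement membrane were followed in a list of 10 laminin, nidogen, perlecan and agrin genes, all with enough copies. Of these, 4 were called lower and none higher, beside 14.7% and 15.2% of all genes. Their median log2 ratio was -0.49 against 0.03 for all genes. Nid1, which links laminin to type IV collagen, had 1529 and 1012 copies, a ratio of 0.678 (0.626 to 0.734). Agrn went from 930 to 1319 copies, a ratio of 1.45 (1.33 to 1.58), and was not called. Hspg2, which encodes perlecan, fell from 1067 to 637 copies, and Lama4, a laminin chain of vessels and muscle, from 251 to 108, a ratio of 0.441 (0.348 to 0.554). Lamb1 and Lamb2, with ratios of 0.582 and 0.575, were the other two genes called lower.

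Markers of cell types that make basement membranes were followed beside this class. All 8 endothelial markers were in the table with none at 0, and together they had 236 TPM in Dox+ and 161 in Dox-, with 3 of 5 genes called lower and none higher. Cdh5, the cadherin of endothelial junctions, fell from 446 to 216 copies, and Tie1 and Cldn5 were also called lower. The endothelial markers did not all fall. Pecam1 had 243 and 253 copies, a ratio of 1.07 (0.891 to 1.28), and Vwf 177 and 148, a ratio of 0.856 (0.684 to 1.07). Kdr had 10 and 17 copies. The 8 smooth muscle markers had 6506 TPM in Dox+ and 4489 in Dox-, with none at 0 and 3 of 7 called lower. Tagln, the most abundant of them, had 11417 and 8854 copies, a ratio of 0.794, and was not called. By contrast the 7 epithelial markers had 826 TPM in Dox+ and 1154 in Dox-, with none at 0 and 2 of 6 called higher, of which Krt7 rose from 179 to 600 copies. Over all genes 15.2% were called higher and 14.7% lower, and with so few markers of each type these counts are a description. The part of these cell types in the collagen ratios was not tested.

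FACIT genes were scarce, with 1195 tags in Dox+ and 961 in Dox-, a ratio of 0.824 (0.756 to 0.897), and neither of the 2 with enough copies was called. Col16a1 (chromosome 4, 129725084 to 129776527) held most of these tags and had 820 and 780 copies, a ratio of 0.974 (0.882 to 1.08). Col14a1, which binds to type I fibrils, had 194 and 131 copies, a ratio of 0.692 (0.550 to 0.868). Without Col16a1 the ratio of the class was 0.494, and 4 of the other 6 members had lower TPM in Dox-. Col12a1, the other FACIT chain known from type I fibrils, had 86 copies in Dox+ and 20 in Dox-, a ratio of 0.238 (0.139 to 0.391). Col9a2 had 66 and 7 copies, a ratio of 0.109 (0.0420 to 0.237), and Col22a1 27 and 13, a ratio of 0.493 (0.234 to 0.989). Col9a3, a chain of the same type IX molecule as Col9a2, had 0 copies in Dox+ and 8 in Dox-, at least 2.73-fold higher when the 0 is set to 3 copies. Col20a1 had 2 copies in each library.

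Other collagens had 3585 tags in Dox+ and 2944 in Dox-, and most of these belonged to both multiplexins, the proteoglycan collagens of basement membrane zones. Col18a1 (chromosome 10, 76514923 to 76629293), from whose end the angiogenesis inhibitor endostatin is cut, fell from 1635 to 821 copies, a ratio of 0.514 (0.472 to 0.560). Col15a1 (chromosome 4, 47221033 to 47326039) had 1619 and 1734 copies, a ratio of 1.10 (1.02 to 1.17). The multiplexins thus had nearly equal copies in Dox+ and stood apart in Dox-. The summed ratio of the class, 0.841 (0.801 to 0.883), and the median of its 3 genes with enough copies, a log2 ratio of 0.13, lie on opposite sides of no change.

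Col7a1, the chain of the anchoring fibrils that fasten epithelium to stroma, had 214 and 283 copies, a ratio of 1.35 (1.13 to 1.63), and was not called. The network-forming chains of vessel walls Col8a1 and Col8a2 had 47 and 30 copies and 31 and 25 copies. Both differences were within counting error. Of the transmembrane collagens Col23a1 had 27 copies in Dox+ and 46 in Dox-, a ratio of 1.74 (1.06 to 2.92), and Col13a1 and Col17a1 had at most 3 copies in either library. For Col28a1, 7 tags were found in Dox+ and 0 in Dox-, at least 2.28-fold lower when the 0 is set to 3 copies.

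The classes held different parts of the collagen tags in the 2 libraries. Beaded filament collagen made up 27.0% of them in Dox+ (26.7% to 27.3%) and 34.1% in Dox- (33.8% to 34.4%). Basement membrane collagen went from 7.35% (7.17% to 7.53%) to 3.68% (3.57% to 3.79%). The fibrillar share was 59.8% in Dox+ and 58.6% in Dox-. Within it the type I chains went from 33.7% of collagen tags to 39.5%. FACIT collagens went from 1.45% to 0.877% and the other classes from 4.34% to 2.69%. Counted per kb of transcript, beaded filament collagen made up 33.4% in Dox+ and 40.7% in Dox-, and basement membrane collagen 6.02% and 2.95%.

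**Figure D4:**
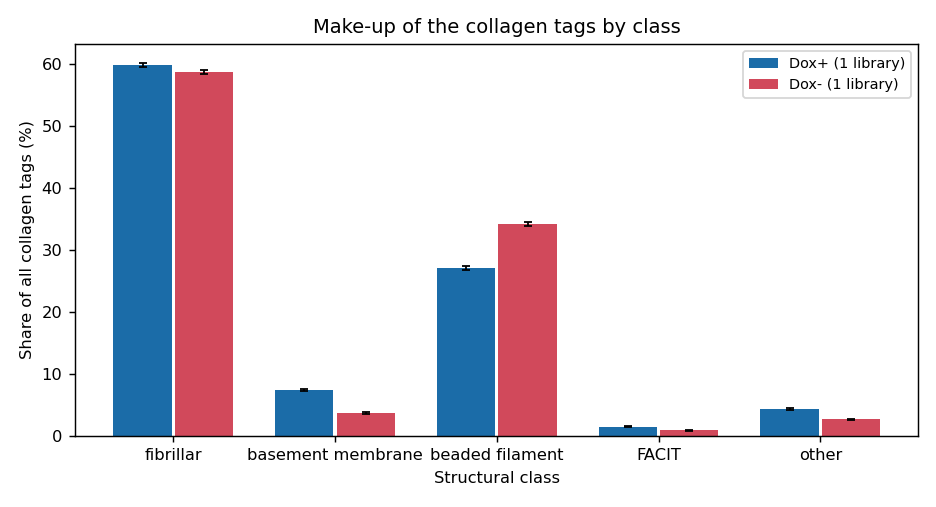
Share of all collagen tags of a library held by each structural class, in percent, with bars for the Dox+ and Dox- libraries and exact 95% counting intervals as error bars. The beaded filament bars read 27.0% and 34.1% and the basement membrane bars 7.35% and 3.68%.

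Genes that modify, export, process, bind and degrade collagen were followed in hand-written lists. Of 14 hydroxylation and folding genes with enough copies, 4 were called higher and 1 lower, with a median log2 ratio of 0.22. Serpinh1, the collagen chaperone of the endoplasmic reticulum, had 16068 and 13980 copies, a ratio of 0.891 (0.871 to 0.912), and the prolyl isomerase Ppib had 3481 and 3650. Plod2, the lysyl hydroxylase that prepares the ends of fibrillar chains for crosslinking, rose from 156 to 417 copies, a ratio of 2.74 (2.27 to 3.31). Plod3, a lysyl hydroxylase that also adds sugars and is needed for type IV collagen, fell from 730 to 409 copies, a ratio of 0.574 (0.507 to 0.649). Fkbp14 rose from 132 to 324 copies, a ratio of 2.51 (2.05 to 3.10), and P4ha2, a subunit of prolyl hydroxylase, from 391 to 596, while Leprel4 was the remaining gene called higher. Of the lysyl hydroxylases Plod2 and Plod3 thus moved in opposite directions, and Plod1, with 599 and 683 copies, was not called.

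For procollagen export and propeptide processing, 4 of 8 genes with enough copies were called higher and 1 lower, with a median log2 ratio of 0.52. Sec31a, a vesicle coat protein with the most copies of the list, had 1262 and 1683 copies, a ratio of 1.37, and was not called. Sec13 and Sec23a, coat proteins of the vesicles that leave the endoplasmic reticulum, rose from 760 to 1242 copies and from 249 to 410. Ctage5, which helps to load collagen into those vesicles, rose from 210 to 394 copies, a ratio of 1.92 (1.62 to 2.28). The processing enzymes split, as Adamts2, which removes the N-terminal propeptide, rose from 338 to 498 copies and Bmp1, which removes the C-terminal propeptide, fell from 606 to 363, a ratio of 0.614 (0.537 to 0.700).

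None of 4 crosslinking genes with enough copies was called, with a median log2 ratio of 0.29. Tgm2, a transglutaminase, had 2245 and 3250 copies, a ratio of 1.48 (1.40 to 1.57). Lox itself had too few copies to be called, 18 in Dox+ and 66 in Dox-, a ratio of 3.76 (2.20 to 6.72).

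The fibril-associated genes included 2 called higher and 2 lower of 7 with enough copies, and their median log2 ratio was 0.11. Ogn, a small leucine-rich proteoglycan that binds fibrils, rose from 290 to 852 copies, a ratio of 3.01 (2.63 to 3.45), and Lum rose from 1549 to 2779. Bgn and Tnxb fell, from 950 to 601 and from 343 to 205 copies. Sparc, a collagen-binding protein with the most copies of the list, had 25262 and 25092 copies, a ratio of 1.02.

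Of 4 collagen receptor genes with enough copies, Ddr2, a receptor kinase for fibrillar collagen, was called higher, from 315 to 503 copies, and none lower. Itgb1, the shared beta chain of the collagen-binding integrins, had 1863 and 1992 copies, a ratio of 1.10. Of 3 collagen-degrading proteases, Mmp2, a gelatinase that also cuts type IV collagen, fell from 3962 to 2006 copies, a ratio of 0.519 (0.491 to 0.547). Ctsk, a cysteine protease that cuts the triple helix, rose from 433 to 635 copies, a ratio of 1.502 that lay barely past the limit, and Mmp14 had 1063 and 916 copies. With so few genes in each list these counts are a description, read beside the 15.2% and 14.7% of all genes called higher and lower.

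**Figure D5:**
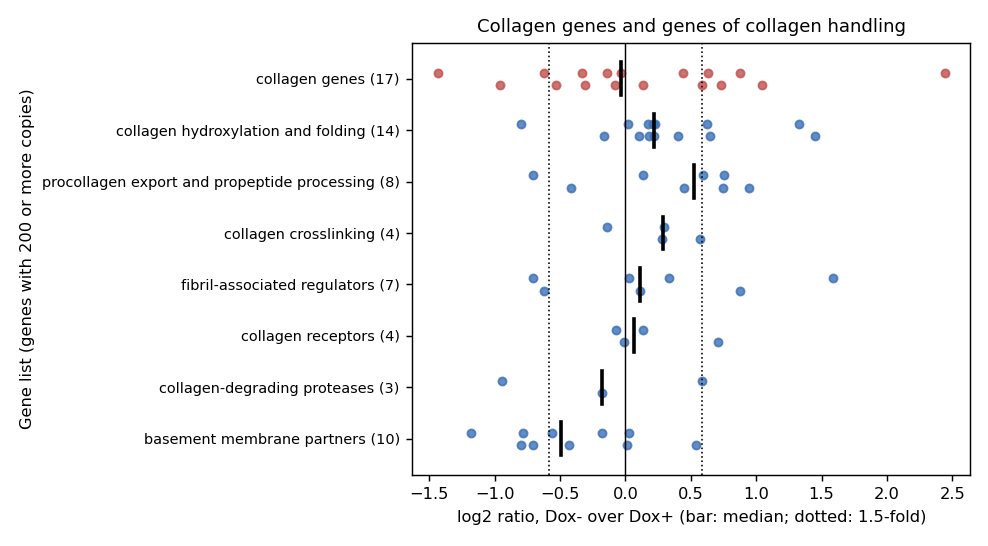
Log2 ratio, Dox- over Dox+, of each gene with 200 or more combined copies in the collagen set and in 7 lists of collagen handling, with the number of genes in brackets, the median as a bar and 1.5-fold as dotted lines. The medians run from 0.52 for export and processing to -0.49 for basement membrane partners, and the collagen genes spread from Col4a5 at -1.44 to Col6a4 at 2.44.

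Stroma cells make most fibrillar collagen. The 9 stroma markers had 2220 TPM in Dox+ and 1537 in Dox-, with none at 0. Of these, 4 were called lower and 1 higher, which was Lum of the fibril list, beside 14.7% and 15.2% of all genes. The lowest ratios were those of Hoxa10 (3120 and 1060 copies), Hoxa11 (2573 and 785) and Hand2 (985 and 143). Without them the other 6 markers together had 1104 TPM in Dox+ and 1197 in Dox-. That split was made after the values were seen, and leaving out the markers that fell most raises the remaining ratio by construction. Among the 6, Vim was also called lower (2612 and 1680 copies), and Pdgfra and Pdgfrb had ratios of 0.743 and 0.753. Lum rose from 259 to 476 TPM, Dcn had a ratio of 1.26 and Thy1 had 723 and 707 copies. The 7 leukocyte markers had 70.5 and 104 TPM, and neither of the 2 with enough copies was called. The red blood cell markers had 11.0 and 35.6 TPM, with Hbb-b2 at 0 in Dox+ and none with enough copies to be called. Among them Hba-a1 had 26 and 114 copies and Hba-a2 19 and 82, while Alas2 went the other way, with 21 and 9. The 3 adipocyte markers in the table had 208 and 164 TPM. The 5 skeletal muscle markers had 584 and 219 TPM, of which Acta1 alone had 565 and 212. The next of them, Tnnt3, had 50 and 12 copies, so that this sum is nearly that of 1 gene. What part these cells had in the collagen ratios was not tested.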

How the data were processed

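Total RNA of 3 pooled uteri per condition was profiled by DGE in 1 library each. The authors removed adaptor-only, low quality and single-copy tags, searched sense and antisense tags against mm9 reference mRNAs and deposited the count of tags per gene. CASAVA is named in the submitters' processing notes, and the aligner, the restriction enzyme and whether antisense tags were kept apart in these counts are not given in the sources used here. The labels mention fragmentation of mRNA while the paper describes tag profiling, so levels of different genes are given per kb. Uncorrected TPM stands beside them where the reading depends on the scale. The TPM values deposited by the authors are copies per 1000000 clean tags, without length correction. The deposited fold changes, P-values and FDR hold the authors' comparison and were not used.

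The clean tag totals were recovered from copies and TPM as the 1 whole number that fits all genes, 5985925 and 5844314. Of these, 74.1% and 72.2% were counted to genes. Ratios used copies and totals without a pseudocount, with exact Clopper-Pearson intervals at 95%, and levels per kb had exact Poisson intervals. The filter of 200 combined copies is that of the study. Counts of 0 were set to 3 copies for lower bounds. Intervals of the change of a chain ratio took the normal approximation on the log scale. The longest coding transcript and the position of each of the 37 genes came from GENCODE on NCBIM37. Members, lists and classes were chosen with earlier results of these data known. All members are accounted for, and of each other list the text names at most 3 genes with the most copies and those past 2-fold with at least 200 combined copies. Further genes were named after their values were seen. Alternatives were other scalings (TMM of edgeR 4.0.16, R 4.3.3), filters and folds, an assumed variation between pools, and sums without the most abundant member. Python 3.11.15, scipy 1.17.1 and matplotlib 3.10.9 were used.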

Additional observations from a re-analysis of the deposited data

How the results depend on the processing

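With 1 library per condition no replicate could be left out, and the variation between pools is unknown. No paired analysis was possible because each condition has 1 library and no test was made. With total gene tags, TMM or median-ratio scaling the higher calls were 6, 5 and 5 and the lower calls 3 each time. The higher calls numbered 10 from 20 combined copies, 11 without a filter and 2 at a fold of 2. The lower calls numbered 8 from 20 copies, 5 from 100, 9 without a filter and 1 at a fold of 2. If pools varied with a coefficient of variation of 0.1, all 8 calls had an interval without 1. At 0.2, 3 higher (Col1a2, Col6a2 and Col6a4) and 2 lower (Col4a5 and Col18a1) did, and at 0.4 only Col6a4, 1 higher and 0 lower.

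Under the same 3 scalings the fibrillar ratio was 1.37, 1.31 and 1.30 and the beaded filament ratio 1.76, 1.69 and 1.68. Without the member with the most copies, the ratio was 1.19 for fibrillar (Col1a1 left out), 0.715 for basement membrane (Col4a2), 1.96 for beaded filament (Col6a1), 0.494 for FACIT (Col16a1) and 0.630 for other collagens (Col15a1). The median ratio of members in place of the sum was 1.19 for fibrillar, 0.649 for basement membrane, 1.84 for beaded filament and 1.10 for other collagens, which turned the direction of the last. The change in share, Dox- minus Dox+, was -1.19 percentage points for fibrillar, -3.67 for basement membrane, 7.08 for beaded filament, -0.57 for FACIT and -1.66 for other. Without Col1a1 these were -4.02, -4.87, 11.8, -0.74 and -2.14, and per kb the fibrillar change was -2.13 and that of basement membrane -3.07. Of 68 recomputed log2 ratios of the 17 genes, 60 stayed within the counting interval, and 1 changed sign, that of Col16a1, which was -0.04 and became 0.0009 with total gene tags.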
